A study of Mus musculus with 3 samples.

Results

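Mouse embryonic fibroblasts on day 6 of reprogramming were compared with the same kind of culture 1 day earlier. Of 129 libraries with a column in the deposited count table, 6 made up the comparison, namely the 3 replicates of Day06 and the 3 replicates of Day05 in the daily time course, and they were chosen by their column names. Primary fibroblasts of the BL6 strain with a wild-type genotype had received lentiviruses that carry rtTA and a doxycycline-inducible cassette of Oct4, Sox2, Klf4 and c-Myc (OSKM). Both days shared the same medium, which held 10% serum, 2 ug/mL doxycycline, 3 uM chiron (a GSK3 inhibitor), 0.25 uM Alk5 inhibitor (against TGF-beta signalling), 50 ug/mL ascorbic acid and LIF. The time course cells received no siRNA and were only re-plated before induction, so Day05 and Day06 differed by the time in culture alone as far as the labels say. Each library is a bulk culture in which reprogramming and non-reprogramming fibroblasts were lysed together, so a smaller share of cells of one kind and less RNA per cell cannot be told apart here. The labels do not say whether the replicates were separate cultures. The p-values rest on the spread between libraries of the same condition, pooled over all 122 libraries of the fit, most of them from other days or siRNAs.

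In the first days after OSKM induction, fibroblasts lose contractile and matrix genes, divide faster, pass through a mesenchymal-to-epithelial transition (MET) and gain early markers such as Cdh1 and Sall4, while most of the pluripotency network comes later. Mitochondria, ribosome production and splicing are known to be remodelled along this path. CEL-Seq2 counts transcript 3′ ends with unique molecular identifiers, so each count stands for 1 captured molecule, and levels are given as CPM, counts scaled to a common library size, after TMM scaling.

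The Day05 libraries held 81284 to 167426 counts and the Day06 libraries 54084 to 144802, so that 1 count was worth 6.65 to 17.7 CPM. Replicate 3 was the deepest library on both days. The cultures still had a fibroblast profile, with Col1a1 at 362 ± 95.1 CPM (SD, n = 3) on Day05 and 456 ± 73.8 on Day06 and Thy1 at 290 ± 70.8 and 375 ± 182. Summed levels of the lists of other cell types differed. They were low for the endothelial and muscle lists, with 13.3 to 39.9 CPM on Day05 and 17.7 to 56.3 on Day06 for 12 endothelial genes and 6.65 to 37.9 and 14.6 to 42.2 for 13 muscle genes, and higher for 12 neural genes (1051 to 1393 and 1049 to 1522 CPM), 15 endoderm genes (239 to 329 and 263 to 301 CPM) and 14 keratinocyte genes (215 to 318 and 155 to 212 CPM). Each range overlapped between the days except the last, and the part of such cells in the changes was not tested. A single gene held a large part of each of the last 3 sums. On Day05 the mean was 541 CPM for Crabp1 (neural sum 1169), 134 for Col4a1 (endoderm sum 284) and 171 for Fgfbp1 (keratinocyte sum 253). Nefl (229 CPM) and Tubb3 (115 CPM) were also present, whereas Sox17, Afp, Ttr, Krt5, Krt15 and Krt17 had 0 counts on both days. No pair of replicates agreed within sampling noise.

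From Day05 to Day06, 246 of 3002 tested genes changed, or 8.19% (edgeR quasi-likelihood test, adjusted p under 0.05). There were 101 higher genes (3.36%) and 145 lower genes (4.83%), with median log2 fold changes of 0.995 and -1.014 beside -0.04 over all tested genes. The surplus of lower genes was smaller with RLE scaling (120 higher and 125 lower), the stricter filter (124 and 125) and DESeq2 (103 and 110). In 238 of the 246 genes the difference had the same sign in all 3 replicates. In 212 of the 246 the values of the days did not overlap, which held for 23.3% of all tested genes. The same libraries chose the 246 genes, so neither count is a separate test of them. The genes with low p-values included transcripts of the mitochondrial genome, Prdx1, Il1rl1, Npm1 and the placental lactogen relatives Prl2c2 and Prl2c3 among those that fell, and Tubb5, the processed pseudogene Gm42666 (log2 fold change 1.299, adjusted p = 3.82e-07, with 6 near-identical copies), Aldh3a1 and Rpl10a among those that rose (chosen after their values were seen). Anxa2, Tfrc, Mt2, both mitochondrial ribosomal RNAs, pseudogene copies and the called genes beyond the first 4 of a list were likewise chosen after their values were seen. The count moved by over 1.5 times when some libraries were left out. It was 106 without replicate 2 and 81 without replicate 3 of both days. It was 146 without replicate 2 of Day05, 144 without replicate 3 of Day05, 120 without replicate 3 of Day06, and 66 when the replicate number was not in the model.

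**Figure D1:**
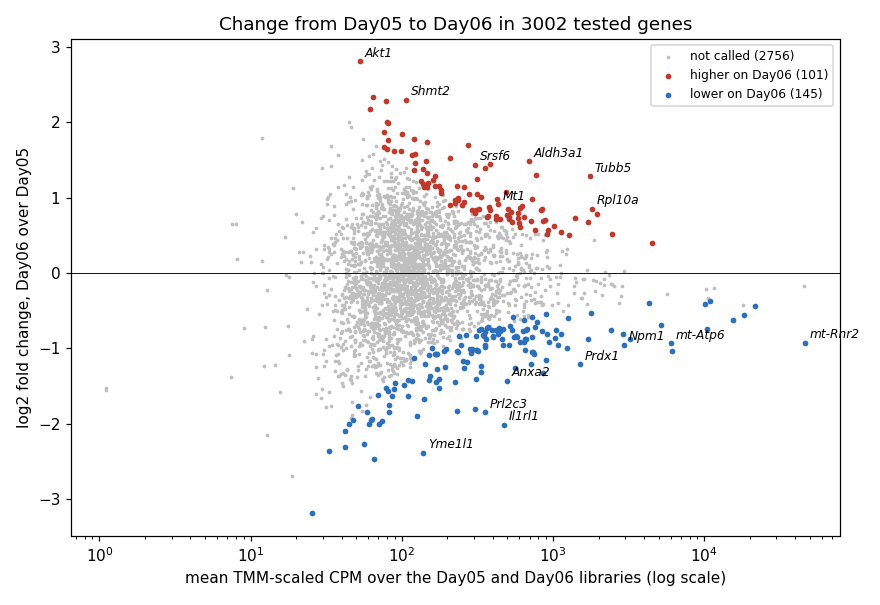
Log2 fold change of each tested gene from Day05 to Day06 (y axis) against its mean TMM-scaled CPM over the 6 libraries (x axis, log scale). Grey points are genes that were not called, red points the 101 higher and blue points the 145 lower genes, and the most abundant transcripts on the right lie at or below 0.

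Day04 was set beside both days. Among the 101 higher genes, the Day05 mean was below both the Day04 and the Day06 mean in 90, and among the 145 lower genes it was above both in 139. Their Day05 values chose these genes, and the same held for 1046 of all 1429 tested genes with a higher Day06 mean and for 1164 of 1573 with a lower one. When Day06 was set against Day04, 59 genes (1.97%) were called, 34 of them higher and 25 lower. Without the replicate number in the model this comparison gave 7 genes. The median of the higher genes was 0.48 against Day04 and that of the lower genes -0.51, both on the log2 scale. The 5 earlier daily steps called 10.3% of the tested genes (Day01 against Day00), 5.26% (Day02), 3.2% (Day03), 12.6% (Day04) and 5% (Day05 against Day04), so that more genes were called in the steps to Day04 and Day01 than in the step to Day06. Neighbouring steps share libraries, and the counts are given side by side only.

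The non-targeting siRNA libraries, from transfected cells that the study also collected on day 6, were added as a reference after the values were seen. Of the 3002 tested genes, 802 (26.7%) differed between these 3 libraries and the Day06 libraries, and 147 (4.9%) between them and the Day05 libraries. Their level was nearer to Day05 than to Day06 in 87 of the 101 higher genes and in 135 of the 145 lower genes, and in 2038 of all tested genes. The median difference of the lower genes from the non-targeting libraries was 0.16 (log2, non-targeting over Day05) and 1.23 (non-targeting over Day06). The reprogramming day was shared with Day06, but the paper describes a further day with the siRNA mix before induction for transfected cells. Transfection and time in culture cannot be told apart in either comparison. Exceptions among the leading genes included Il1rl1, with 199.8 CPM in the non-targeting libraries, close to its Day06 level, and Rpl10a, with 3238 CPM, above both days.

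**Figure D2:**
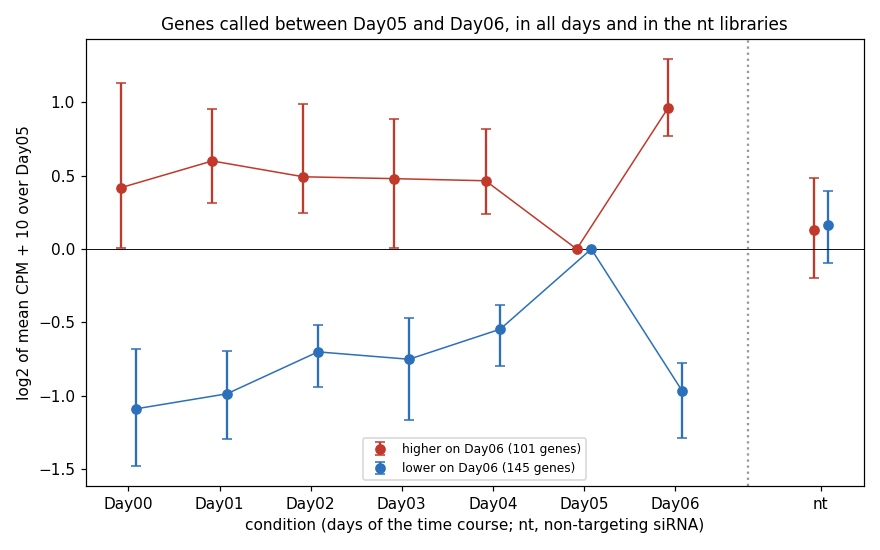
Median log2 ratio to Day05 (y axis, of mean CPM plus 10) of the genes that rose (red) and fell (blue) from Day05 to Day06, in each day and in the non-targeting siRNA libraries (nt), with interquartile ranges as bars. The genes were chosen by their Day05 and Day06 values; the blue medians climb from -1.09 on Day00 to 0 on Day05 and return to -0.97 on Day06, and the nt medians lie at 0.13 and 0.16.

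Several transcripts of the mitochondrial genome fell. This genome encodes subunits of the respiratory chain and of ATP synthase beside 2 ribosomal RNAs. All 13 protein-coding genes had a negative log2 fold change (median -0.56), 6 passed the test as lower (46.2%, beside 4.83% of all genes) and 0 as higher, and the 6 became 4 to 7 when libraries were left out and 2 without the replicate number in the model. Their summed level was 115839, 127469 and 108142 CPM in replicates 1 to 3 on Day05 and 88149, 89270 and 77786 CPM on Day06. On Day04 it had been 91418 to 114588 CPM, so the Day06 libraries lay below those of both earlier days. The share of all counts on mitochondrial transcripts moved from 20.9 ± 0.56% (SD, n = 3) to 16.3 ± 0.29%.

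For mt-Atp6, a subunit of ATP synthase, the libraries gave 7356, 7418 and 9032 CPM on Day05 and 4184, 3717 and 4588 CPM on Day06. The days were well apart, with a log2 fold change of -0.93 ± 0.13 (SE) and an adjusted p of 9.13e-09, and Day04 at 5929 CPM lay between them. For mt-Cytb, the cytochrome b of complex III, they gave 12222, 14119 and 13069 CPM and then 8280, 7575 and 7748 CPM. It fell by 0.74 on the log2 scale (SE 0.12, adjusted p = 1.25e-06). For mt-Co1, a core subunit of complex IV, the change was -0.56 ± 0.12 (adjusted p = 0.000756). Both kept an adjusted p under 0.05 whichever library was left out.

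Of the ribosomal RNAs of the same genome, 1 passed the test. mt-Rnr2, the large ribosomal RNA, was at 57180, 61638 and 62917 CPM on Day05 and at 28876, 29751 and 36704 CPM on Day06, with a log2 fold change of -0.92 ± 0.16 (adjusted p = 4.14e-06). For mt-Rnr1, the small one, the values were 43353, 42662 and 59199 CPM and then 38004, 36706 and 54170 CPM. It was lower in each of 3 replicates, but its days overlapped and its log2 fold change was -0.17 ± 0.15 (adjusted p = 0.515). The difference between the 2 RNAs was not tested. Of 49 tested nuclear genes of the respiratory chain, 1 rose (Cox4i1, by 0.57 on the log2 scale, adjusted p = 0.0351), 0 fell, and the median was -0.14. The rising share was 2.04%, beside 3.36% of all genes. The call of Cox4i1 was lost in 9 of 9 leave-outs and without the replicate number in the model.

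The gene with the lowest p-value, Gm10925, is a nuclear copy of mt-Atp6. It is annotated as an unprocessed pseudogene on chromosome 1 (GRCm38, 24613974 to 24614651, minus strand), and it is shown with the end of mt-Atp6 because 3′-end reads from the pair have the same letters. The sequences below come from the GENCODE vM21 transcripts, 5′ to 3′, and the capitals mark the 3 bases of mt-Atp6 that the annotated copy lacks.
mt-Atp6 (chrM:8508-8607, plus strand): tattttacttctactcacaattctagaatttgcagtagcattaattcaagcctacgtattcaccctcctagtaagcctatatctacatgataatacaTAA
Gm10925 (chr1:24613974-24614070, minus strand): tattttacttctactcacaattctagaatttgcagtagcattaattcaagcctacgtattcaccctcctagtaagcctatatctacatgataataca
Over their common length the 2 transcripts matched at 678 of 678 bases. Gm10925 had 7204, 8227 and 9251 CPM on Day05 and 3803, 3787 and 4461 CPM on Day06, near the values of mt-Atp6 in each library, and its reads cannot be assigned to one locus. Gm28661 and mt-Co2 (681 of 681 bases) and Gm28437 and mt-Co3 (783 of 783) were likewise identical over their common length, and Gm28439 matched 876 of the 1378 bases of mt-Nd4, while Gm13340 and mt-Co1 differed at 37 of 1545 bases.

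Prdx1, a peroxiredoxin that removes hydrogen peroxide, was at 1605, 2362 and 2381 CPM on Day05 and at 790, 956 and 1013 CPM on Day06. The days did not overlap (log2 fold change -1.21 ± 0.17, adjusted p = 1.49e-08), and the Day06 mean of 920 CPM was near the 1061 CPM of Day04. Among 22 tested antioxidant genes, the glutathione transferase Mgst1 also fell (-0.70 ± 0.23, adjusted p = 0.0385), with overlapping days and a call that was lost in 7 of 9 leave-outs and without the replicate number in the model. Of the list 9.09% fell, beside 4.83% of all genes, 0 genes rose, and the median was 0.09. With DESeq2 and with RLE scaling 1 gene of the list rose and 1 fell. 

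Il1rl1, which encodes the interleukin-33 receptor, was at 872, 889 and 512 CPM on Day05 and at 249, 195 and 127 CPM on Day06. It fell by 2.01 on the log2 scale (SE 0.29, adjusted p = 4.72e-08), and it had been at 296 CPM on Day04. Prl2c3, a proliferin, followed the same course with 518, 597 and 539 CPM on Day05 and 278, 88.5 and 120 CPM on Day06 (-1.85 ± 0.29, adjusted p = 2.63e-07). Its paralog Prl2c2 moved from 480, 491 and 446 CPM to 205, 106 and 113 CPM (-1.81 ± 0.29, adjusted p = 1.01e-06). These 2 genes have near-identical transcripts, and the counting could split reads between them. Anxa2, a calcium-dependent membrane-binding protein, was at 645, 796 and 745 CPM and then at 278, 159 and 338 CPM (-1.43 ± 0.24, adjusted p = 2.51e-06). In all 4 genes every Day06 library was below every Day05 library.

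Npm1, the nucleolar chaperone nucleophosmin, fell from 3135, 3888 and 4682 CPM to 1770, 2212 and 2111 CPM (-0.95 ± 0.14, adjusted p = 1.46e-07). Nop58, a core protein of box C/D snoRNPs, fell with it (-0.92 ± 0.22, adjusted p = 0.0016), although its call was lost without replicate 2 (adjusted p = 0.0611) and without replicate 3 (0.0693). They were the called genes among 22 tested ribosome biogenesis genes, of which 9.09% fell beside 4.83% of all genes, 0 rose and the median was -0.24.

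Tfrc, the transferrin receptor for iron uptake, was at 809, 1247 and 978 CPM on Day05 and at 497, 478 and 457 CPM on Day06 (-1.07 ± 0.20, adjusted p = 2.56e-05). In the glycolysis list, Pgk1, phosphoglycerate kinase, fell from 1062, 1659 and 964 CPM to 512, 726 and 443 CPM (-1.15 ± 0.20, adjusted p = 7.58e-06), and Pgam1, phosphoglycerate mutase, rose from 379, 425 and 492 CPM to 658, 991 and 823 CPM (0.89 ± 0.22, adjusted p = 0.00235). The call of Pgam1 was lost without replicate 2 (adjusted p = 0.0767), without replicate 3 of Day06 (0.0502) and without the replicate number in the model. Among 11 tested glycolysis genes Pgk1 and Pgam1 were the ones called, or 9.09% in each direction. Of all genes 3.36% rose and 4.83% fell. The median of the list was 0.29.

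**Figure D3:**
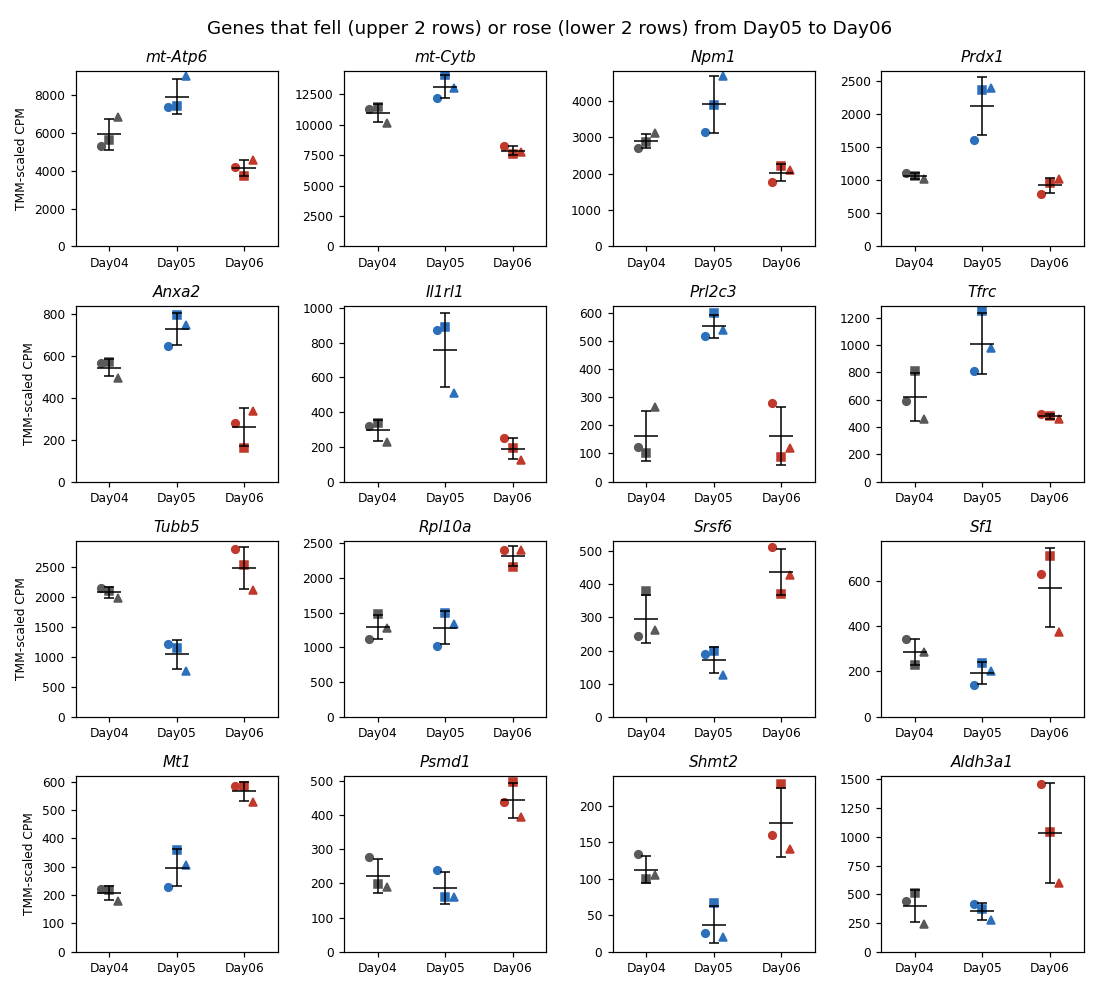
TMM-scaled CPM (y axis, from 0) of 16 genes in the libraries of Day04 (grey), Day05 (blue) and Day06 (red), with circles, squares and triangles for replicates 1, 2 and 3, and black bars for the mean and SD of 3 libraries. The upper 8 genes fell and the lower 8 rose from Day05 to Day06; Tubb5 was at 1978 to 2159 CPM on Day04, near its Day06 values.

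Tubb5, a beta-tubulin, had the lowest p-value among the genes that rose. Its libraries gave 1213, 1154 and 758 CPM on Day05 and 2809, 2531 and 2111 CPM on Day06 (1.28 ± 0.16, adjusted p = 2.47e-10). The Day04 libraries, at 2159, 2104 and 1978 CPM, were near those of Day06, so that the gene was low on Day05 alone among these 3 days. Aldh3a1, an aldehyde dehydrogenase, was at 417, 372 and 273 CPM and then at 1463, 1044 and 598 CPM (1.48 ± 0.24, adjusted p = 9.42e-07). It was also higher than on Day04, at 398 CPM (1.34, adjusted p = 2.02e-05), as were Mt1 and Rpl10a.

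Mt1, a metallothionein that binds zinc and copper, rose from 228, 358 and 306 CPM to 585, 584 and 528 CPM (0.91 ± 0.24, adjusted p = 0.00646). The call was lost in 4 of 9 leave-outs and without the replicate number in the model. Mt2, its neighbour in the genome, was at 822, 969 and 964 CPM and then at 790, 1080 and 1048 CPM, and its change of 0.07 ± 0.19 did not pass the test (adjusted p = 0.862). Against Day04, where Mt2 was at 441 CPM, Mt2 was higher (1.13, adjusted p = 2.49e-05).

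Shmt2, the mitochondrial serine hydroxymethyltransferase of one-carbon metabolism, rose from 25.3, 66.3 and 19.95 CPM to 161, 230.1 and 141 CPM (2.30 ± 0.53, adjusted p = 0.00116), and was the 1 gene called among 19 tested genes of amino acid synthesis under ATF4. That was 5.26% of the list, beside 3.36% of all genes that rose. The call of Shmt2 was lost without replicate 3 (adjusted p = 0.065). In the sterol and lipid list, Scd2, a fatty acid desaturase, rose from 493, 411 and 392.4 CPM to 688, 938 and 732 CPM (0.86 ± 0.22, adjusted p = 0.00434). Of 12 tested genes in that list 16.7% rose, beside 3.36% of all genes, 0 fell, and the median was 0.23. The call of Scd2 was lost in 3 of 9 leave-outs and without the replicate number in the model.

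Ordered by size of change among called genes of at least 50 CPM on 1 day and 1 sign in 3 replicates, the genes that rose most included Akt1 (2.80), a kinase of growth factor signalling, Nrd1 (2.33), Shmt2, Tmem248 (2.28), Met (2.17), the receptor of hepatocyte growth factor, Csnk2a2 (2.01), a catalytic subunit of casein kinase 2, Ssbp3 (1.98), Selenow (1.77), Gatad2a (1.76), a NuRD subunit, Nfib (1.74), a nuclear factor I protein, and Slc25a39 (1.69), the mitochondrial glutathione carrier. Akt1 rested on 4 counts on Day05 and 29 on Day06, and 21 of the latter were in replicate 3; its call was lost without replicate 3 of Day06 (adjusted p = 0.163). Slc25a39 was better covered, at 164, 133 and 99.8 CPM and then 556, 301 and 380.0 CPM. Selenow, a selenoprotein, was at 50.6, 53.1 and 53.2 CPM and then at 219, 195 and 155 CPM. Met overlapped between the days through a value of 35.4 CPM in replicate 2 of Day06.

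Within the same limits, the genes that fell most were Gm44510 (-2.46), Yme1l1 (-2.39), a protease of the mitochondrial inner membrane, Prl2c1 (-2.36), Aimp1 (-2.27), a scaffold of the aminoacyl-tRNA synthetase complex, Aurkaip1 (-2.09), Il1rl1, Gm9701 (-2.01), Rpl36a-ps3 (-2.00), Gm12583 (-2.00), Cep57 (-1.96), a centrosome protein, Atg5 (-1.95), an autophagy protein, and Mir17hg (-1.94), the host transcript of the miR-17 cluster. Yme1l1 was at 228, 265 and 199.5 CPM on Day05 and at 58.5, 53.1 and 28.1 CPM on Day06, and the days were far apart. Prl2c1 had 20 counts on Day05 and 3 on Day06, a ratio of 0.188 with an exact 95% counting interval of 0.0358 to 0.634. Of the 24 genes in the 2 rankings, Slc25a39, Yme1l1 and Il1rl1 kept their call in each of 9 leave-outs, and 13 kept it without the replicate number in the model. Gm9701 and Rpl36a-ps3 have near-identical copies elsewhere, and Nrd1, Shmt2, Tmem248, Aimp1 and Gm44510 overlap a gene on the opposite strand.

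Of 70 tested ribosomal protein genes, 12 fell and 3 rose, or 17.1% and 4.29% beside 4.83% and 3.36% of all genes, with a median of -0.28. Among those that fell were Rpl5, Rpl11, Rpl21, Rpl23, Rpl26, Rpl36a, Rps3a1, Rps7, Rps18, Rps23 and Rps24, and those that rose were Rpl10a, Rpl6 and Rpl8. Rpl5, which binds 5S rRNA, was at 670, 743 and 1237 CPM and then at 351, 336 and 605 CPM (-1.02 ± 0.20, adjusted p = 7.02e-05). Rpl23 changed by -0.91 ± 0.18 (adjusted p = 9.06e-05) and Rps24 by -0.88 ± 0.20 (adjusted p = 0.000648). Rpl10a went the other way, from 1024, 1499 and 1330 CPM to 2399, 2159 and 2407 CPM (0.85 ± 0.15, adjusted p = 8.45e-06). Its near-identical processed copy Rpl10a-ps1 gave 1264, 1499 and 1543 CPM and then 2896, 2177 and 2357 CPM. The 12 genes that fell became 3 without replicate 3, 5 without replicate 3 of Day06, 6 without replicate 2, and 1 without the replicate number in the model; the 3 rising genes became 1 without replicate 2 or without the replicate number in the model, and 5 with RLE or upper-quartile scaling.

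Of 24 tested splicing factors 5 rose (Srsf6, Srsf2, Hnrnpm, Hnrnpab and Srsf11) and 1 fell (Srsf3), or 20.8% and 4.17% beside 3.36% and 4.83% of all genes, with 14 positive log2 fold changes and a median of 0.17. Srsf6, an SR protein, was at 190, 199 and 126 CPM on Day05 and at 512, 372 and 429 CPM on Day06 (1.43 ± 0.28, adjusted p = 7.02e-05). Srsf2 changed by 0.83 ± 0.20 (adjusted p = 0.00189), Hnrnpm by 1.05 ± 0.29 (adjusted p = 0.00842) and Srsf3 by -0.59 ± 0.17 (adjusted p = 0.0127). Sf1, the branch point binding protein, which was not in the list and was chosen after its value was seen, rose from 139, 239 and 199.5 CPM to 629, 708 and 373 CPM (1.44 ± 0.28, adjusted p = 5.53e-05). The 5 genes became 1 without replicate 2 or without replicate 3, and 2 without the replicate number in the model. The call of Srsf3 was lost in 6 of 9 leave-outs and without the replicate number in the model.

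Lists of protein homeostasis held a few called genes each. Among 23 proteasome genes Psmd1 (1.24 ± 0.27, adjusted p = 0.000491) and Psma6 (0.68, adjusted p = 0.0318) rose, and Psmd8 (-1.52 ± 0.36, adjusted p = 0.0018), Psma4 (-0.81) and Psma1 (-0.76) fell, or 8.7% and 13% beside 3.36% and 4.83% of all genes. The calls of Psmd8, Psma4 and Psma1 were lost in 2, 5 and 7 of 9 leave-outs, and the 3 genes became 0 without replicate 3 or without replicate 3 of Day06 and 1 without the replicate number in the model. Psmd1, a scaffold of the 19S particle, was at 240.1, 159 and 160 CPM and then at 439, 496 and 394 CPM. The cytosolic HSP90 genes diverged. Hsp90aa1, the inducible form, fell from 5384, 7219 and 6504 CPM to 3657, 4035 and 4208 CPM (-0.68 ± 0.13, adjusted p = 6.47e-05), and Hsp90ab1, the constitutive form, rose from 1327, 756 and 1077 CPM to 1726, 1628 and 1858 CPM (0.73 ± 0.17, adjusted p = 0.00138). The call of Hsp90ab1 was lost without replicate 2, without replicate 3 and without replicate 3 of Day06 (adjusted p = 0.0517 to 0.0685), and without the replicate number in the model. Of 20 heat shock genes 10% rose and 10% fell, beside 3.36% and 4.83% of all genes. The others called were Cct2 (0.72, adjusted p = 0.046), a chaperonin subunit, and Dnaja1 (-1.03, adjusted p = 0.032), a co-chaperone. In the endoplasmic reticulum chaperone list Pdia6 (-1.04, adjusted p = 0.0178) fell, as 1 of 11 (9.09%, beside 4.83% of all genes). Among 32 translation factors Eif2s1 (-1.41, adjusted p = 0.0178) and Eef1a1 (-0.76, adjusted p = 0.0228) fell and Eif5 (0.74, adjusted p = 0.0424) rose, or 6.25% and 3.12%, near the shares over all genes. These 6 calls were each lost in 5 to 7 of 9 leave-outs and without the replicate number in the model.

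**Figure D4:**
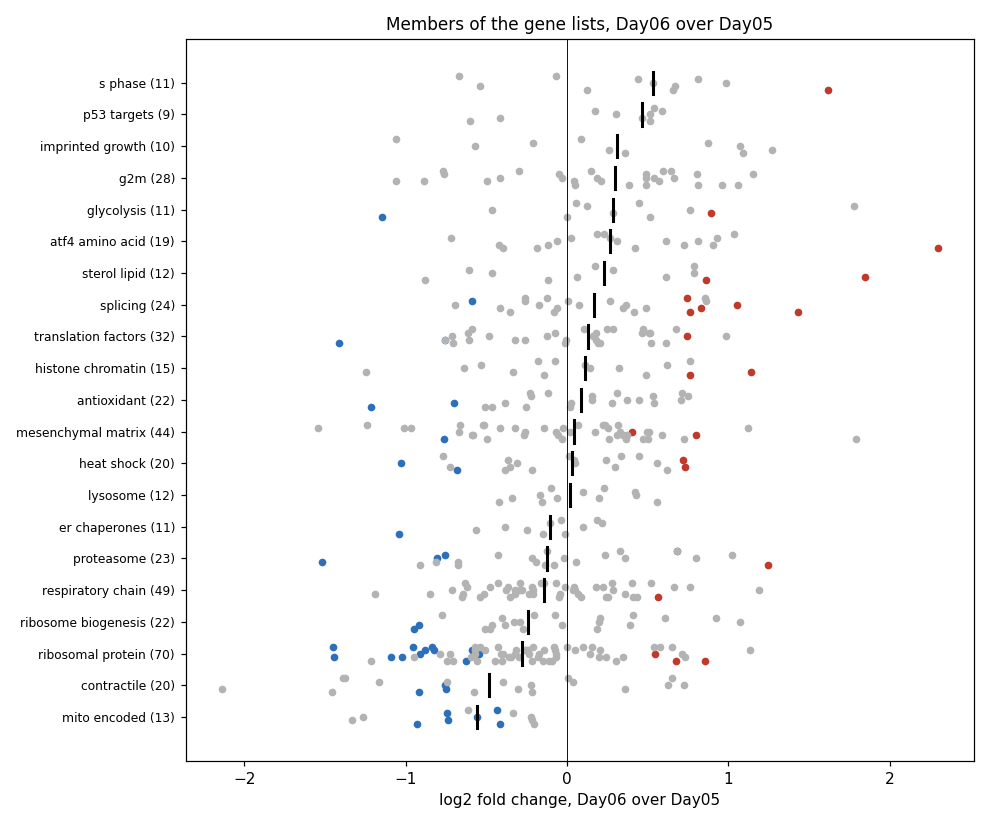
Log2 fold change from Day05 to Day06 (x axis) of each tested member of the lists with at least 9 tested genes (y axis, number tested in parentheses). Grey points were not called, red points were higher and blue points lower on Day06, and black bars are list medians, which run from -0.56 for mitochondrially encoded genes to 0.53 for S phase genes.

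Some contractile genes fell. Of 20 tested genes 3 fell (15%, beside 4.83% of all genes) and 0 rose, and the median was -0.49. Cald1, the actin-binding protein caldesmon, was at 961, 610.4 and 838 CPM on Day05 and at 468, 283 and 479 CPM on Day06 (-0.92 ± 0.21, adjusted p = 0.00127), and it was called in every leave-out. Myl6, a myosin light chain, changed by -0.75 ± 0.20 (adjusted p = 0.00646) and Tpm4, a tropomyosin, by -0.76 ± 0.22 (adjusted p = 0.0127). The 3 genes became 1 without replicate 2, without replicate 3 or without replicate 3 of Day06, and 0 without the replicate number in the model. The summed level of the list had been 16666 CPM on Day00 and 4053 CPM on Day04, and it was 4588, 3808 and 4097 CPM on Day05 and 3803, 2743 and 2695 CPM on Day06.

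Of 44 tested matrix and mesenchymal genes Col1a2 (0.80 ± 0.23, adjusted p = 0.012), a chain of type I collagen, and S100a6 (0.40 ± 0.13, adjusted p = 0.0392), a calcium-binding protein, rose, and Thbs1 (-0.76 ± 0.21, adjusted p = 0.00954), the matricellular protein thrombospondin 1, fell, or 4.55% and 2.27% beside 3.36% and 4.83% of all genes. The median was 0.05, and none of these calls held in all leave-outs, since the counts reached 0 in each direction without replicate 2, without replicate 3 and without replicate 2 or 3 of Day05. They were also 0 in each direction without the replicate number in the model. Thbs1 was at 885, 1194 and 1071 CPM and then at 746, 655 and 514 CPM, after 3612 CPM on Day00. Col1a1, the other chain, had a log2 fold change of 0.22 ± 0.25 (adjusted p = 0.641) and Thy1, a fibroblast surface protein, one of 0.26 ± 0.25 (adjusted p = 0.579), both with overlapping days.

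The early reprogramming markers were at the limit of detection. Cdh1, the epithelial cadherin, had 2, 2 and 5 counts on Day05 and 2, 7 and 4 counts on Day06, after 1 count over the Day04 libraries. The ratio of its summed counts was 1.81 with an exact 95% counting interval of 0.716 to 4.802. Epcam, an epithelial adhesion molecule, had 1, 2 and 2 counts and then 3, 3 and 3 counts (ratio 2.26, interval 0.679 to 8.57). For Sall4 the counts were 1, 2 and 0 and then 1, 2 and 2 (ratio 2.09, interval 0.407 to 13.5), and Myc had 1 count on Day05 and 4 on Day06 (ratio 5.02, interval 0.496 to 247). All 4 intervals include no change.

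Of the other factors, Nanog had 1 count on Day05 and 0 on Day06, Pou5f1 and Sox2 had 1 on each day, Klf4 had 3 on each day, and Esrrb and Fut4 had 0 in all 6 libraries, where a count of 0 allows a share of up to 0.00179% to 0.00555% of a library. The files do not show whether transcripts of the OSKM cassette were counted under these symbols. These intervals and limits cover counting error only. The summed level of 36 epithelial genes was 316, 438 and 406 CPM on Day05 and 366, 673 and 676 CPM on Day06, and that of 44 pluripotency genes 177, 504 and 279 CPM and then 278, 460.2 and 366 CPM. Both sums overlapped between the days, and the epithelial sum was higher on Day06 in each of 3 replicate pairs and the pluripotency sum in 2. Few of these genes passed the filter on low counts, and the tested ones were Perp (-0.46, adjusted p = 0.493), Apela (-1.66, adjusted p = 0.213) and L1td1 (-0.51, adjusted p = 0.737).

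Among 11 tested S phase genes 1 rose, or 9.09% beside 3.36% of all genes, and the median was 0.53. The called gene was Uhrf1 (1.62 ± 0.47, adjusted p = 0.0155), which brings DNA methyltransferase to replicated DNA. Its libraries gave 50.6, 79.6 and 26.6 CPM and then 117, 177 and 141 CPM, and the call was lost in 4 of 9 leave-outs and without the replicate number in the model. Of 28 genes of G2 and mitosis, 0 were called with edgeR or DESeq2 and 9 had an unadjusted p under 0.05. Of all 3002 tested genes, 683 had an unadjusted p under 0.05. In the G2 and mitosis list Birc5 (0.96, adjusted p = 0.0656), survivin, and Hmgb2 (-1.06, adjusted p = 0.0995) had the lowest p-values. Cdkn1a, the p21 cell cycle inhibitor and a p53 target, was at 796, 518 and 632 CPM and then at 936, 1009 and 866 CPM. Its days did not overlap, and the log2 fold change of 0.51 ± 0.19 did not pass the test (adjusted p = 0.0725). Of 9 tested p53 targets 0 were called with edgeR and 1 with DESeq2, and 3 had an unadjusted p under 0.05, beside 683 of all 3002 genes. Ccng1, another p53 target, was at -0.42 (adjusted p = 0.145).

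Smaller lists held 1 or 2 called genes each. Ezh2 (1.14, adjusted p = 0.0406), the methyltransferase of PRC2, and Hmgn1 (0.76, adjusted p = 0.0137), a nucleosome-binding protein, rose among 15 chromatin genes, Jund (1.16, adjusted p = 0.0313), an AP-1 subunit, among 7 immediate early genes, and Ifitm3 (0.67, adjusted p = 0.0357), an antiviral membrane protein, among 4 interferon-stimulated genes. The rising shares of these lists were 13.3%, 14.3% and 25%, beside 3.36% of all genes. None of these 4 genes kept its call in all leave-outs or without the replicate number in the model. Lists with 0 calls by edgeR or DESeq2 are given by the tested genes of lowest p. In them 1 of 7 low oxygen genes, 2 of 10 imprinted genes, 0 of 12 lysosome genes and 1 of 7 nuclear noncoding RNAs had an unadjusted p under 0.05, beside 683 of all 3002 genes. The genes of lowest p were Mif (0.80, adjusted p = 0.17) and Bnip3 (-0.74, adjusted p = 0.333) for low oxygen, Peg3 (1.09, adjusted p = 0.0744) and Ndn (1.27, adjusted p = 0.107) for imprinted growth genes, Lamp2 (-0.42, adjusted p = 0.325) and Lamp1 (-0.34, adjusted p = 0.398) for the lysosome, and Gas5 (-1.21, adjusted p = 0.0793) and Malat1 (-0.27, adjusted p = 0.382) for nuclear noncoding RNAs. Ctnnb1 (0.26, adjusted p = 0.701) and Ccnd1 (0.13, adjusted p = 0.80) stood for Wnt signalling, and Lyz2 (0.14, adjusted p = 0.939), Nefl (-0.62, adjusted p = 0.282), Tubb3 (0.68, adjusted p = 0.325), Fgfbp1 (-0.88, adjusted p = 0.152), Krtdap (0.28, adjusted p = 0.873) and Col4a1 (0.08, adjusted p = 0.923) for the lists of other cell types.

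Base composition and annotation class moved with the direction of change. The last 500 bases of transcripts had a median GC content of 48.95% in the higher genes, 43.78% in the lower genes and 45.58% in all genes with a value. In the fifth of genes with the lowest GC content 10 rose and 35 fell (median log2 fold change -0.14), and in the fifth with the highest 31 rose and 12 fell (median 0.13). With the scaling of each library corrected for GC content, 230 genes were called, 94 higher and 136 lower, and 215 of the 246 genes were among them. Of 479 tested pseudogenes 12 rose (2.51%) and 51 fell (10.6%), while of 2424 protein-coding genes 88 rose and 88 fell (3.63% each). Among 541 genes with at least 1 near-identical copy 17 rose and 60 fell (11.1%). Without the mitochondrial transcripts and their copies 226 genes were called, 102 higher and 124 lower. TMM factors were 1.07 to 1.13 on Day05 and 1.21 to 1.28 on Day06. The part of base composition and of library differences in the changes was not tested further.

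**Figure D5:**
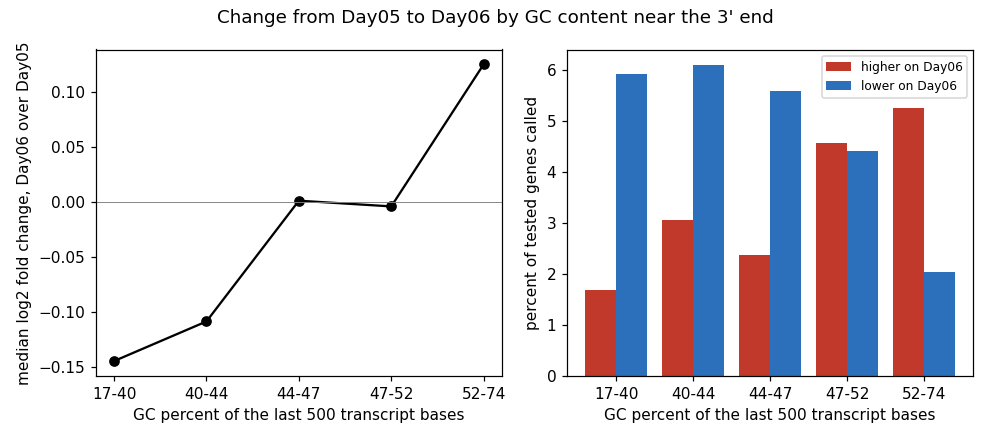
Median log2 fold change from Day05 to Day06 (left) and percent of tested genes called higher (red) or lower (blue, right) in 5 equal groups of genes by GC percent of the last 500 transcript bases (x axes). The median runs from -0.14 in the lowest group to 0.13 in the highest, and lower calls make up 5.92% of the lowest and 2.03% of the highest group.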

How the data were processed

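RNA from primary mouse embryonic fibroblasts was profiled by CEL-Seq2. The labels describe 3 sequenced pools that carry the replicate numbers, and column names gave the day or siRNA. For the deposited tables, the authors aligned reads to mm10 (Bowtie2) and counted molecules with the CEL-Seq pipeline and GENCODE vM13. The deposited counts are UMI-corrected counts per gene symbol, not normalized. The deposited log2 values are log2 CPM that the authors scaled by size factors and from which they regressed the batch; they served an alternative only. 

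Here 122 libraries of 41 conditions entered 1 edgeR (4.0.16, R 4.3.3) quasi-likelihood fit on the counts, with TMM scaling, filterByExpr by condition (minimum count 10; 3002 of 50507 genes), a term per condition and the replicate number as a block; 7 columns were not used. P-values were adjusted by Benjamini-Hochberg, with a threshold of 0.05. Residual degrees of freedom were 79 and the common dispersion 0.0155. Each SE is the fold change divided by the square root of its F value. Totals of the 6 libraries ran from 54084 to 167426 counts, which sets the precision. The labels make the replicate number a shared sequencing pool, so libraries of 1 number were taken as paired; deviations of Day05 and Day06 libraries of the same number correlated at 0.093, 0.124 and 0.226. Changes in CPM are relative to all RNA in a library.

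The comparison, gene lists and named genes were chosen with earlier results of these data known. Named were the 12 called genes of largest change in each direction with at least 50 CPM on 1 day and 1 sign in 3 replicates, up to 4 called genes of each list (otherwise the 2 of lowest p), and 13 fixed markers; others are said to be chosen after their values were seen. Exact counting intervals are binomial, at 95%, against all counts of the libraries, with a floor of 3 counts. Positions, GC content and copies came from GENCODE vM21 (GRCm38; 2954 of 3002 genes matched by symbol), an annotation newer than that of the counts. Alternatives were DESeq2 1.42.0, limma 3.58.1 on the log2 values, other scalings, filters and libraries, and 2 added after seeing the data (GC correction, no mitochondrial transcripts). The main test was tested on simulated data. How the counting handled strand and reads with several matches is not given in the sources used here. Some genes that meet the naming rule are not reported here.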

Additional observations from a re-analysis of the deposited data

How the results depend on the processing

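The count of genes called from Day05 to Day06 (246; 101 higher, 145 lower) stayed within 1.5 times under RLE and upper-quartile scaling, the stricter filter, the time course libraries alone, the Day05 and Day06 libraries alone, DESeq2 (213) and both additions, and all 246 genes kept their direction wherever they were tested. Without the replicate block 66 were called (23 higher, 43 lower), and 7 instead of 59 against Day04. Without the expression filter (14248 genes tested) 114 were called (31 and 83), and 23 against Day04. By limma on the deposited log2 values of 10568 genes 25 were called (8 and 17), and 2 against Day04. Leaving out libraries gave 81 to 215 genes, 25 to 81 higher and 56 to 134 lower, with the fewest without replicate 3, the deepest, and 28 to 59 genes against Day04. The 5 earlier steps gave 196, 51, 26, 220 and 21 genes without the block, and the non-targeting libraries differed from Day05 in 52 and from Day06 in 465 genes (2 and 217 by limma). Of 81 named genes with a call, 29 kept it in all 9 leave-outs and 38 without the block. Reversals were limited to genes without a call. Leaving out libraries gave log2 fold changes of -0.89 to 1.09 for Lyz2, -0.0748 to 0.56 for Ctnnb1, -0.0603 to 0.28 for Col4a1, -1.50 to 0.96 for Krtdap and -0.0326 to 0.24 for Ccnd1, and limma gave -0.25 for Krtdap. Few counts limit the markers: in the shallowest library 1 count is 17.7 CPM. The causes of these changes were not tested.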
